A study of Mus musculus with 6 samples.

Results

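The proteasome is the protease that degrades ubiquitin-tagged proteins, and the results below concern the transcripts of its subunits in the newborn mouse skull roof. Members were all array probes whose gene symbol was Psma, Psmb, Psmc or Psmd followed by a number. The rule found 70 of the 45281 probes on the array, for 39 genes. Psmc3ip, the 1 further symbol with such a beginning, is not a proteasome subunit and was left out.

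Total RNA from the calvaria, the flat bones of the skull roof, was compared between wild-type FVB/N mice (WT, 3 samples) and FVB/N mice overexpressing the microRNA miR-34c (TG, 3 samples), all at postnatal day 3. The WT samples were the control, and the labels give no allele or treatment shared by the groups. The sources used here do not give the promoter that drives the microRNA, whether a sample is 1 pup or a pool, or the sex of the pups. The labels name biological replicates and do not say more of their origin. The p-values set the difference between the groups against the spread within the groups of these 6 samples. The fit draws that spread, for each probe, toward a value shared by all probes tested.

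In the cell, the proteasome is built from a core particle and a regulatory particle that caps it. The core is a barrel of alpha-subunit rings on the outside and beta-subunit rings on the inside, and Psmb5, Psmb6 and Psmb7 carry its protease sites. The regulatory particle binds ubiquitin chains, removes them, and unfolds the substrate with a ring of ATPases. In cells exposed to interferon, and at rest in many blood cells, Psmb8, Psmb9 and Psmb10 replace the constitutive protease subunits and form the immunoproteasome, which favours peptides for display on MHC class I. In bone, the osteoblast regulator Runx2 is a known substrate of the ubiquitin and proteasome system, and proteasome inhibitors are known to stimulate bone formation in rodents.

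The 6 arrays were alike in brightness, with median intensities from 125.1 to 132.6. A detection p under 0.05 was reached by 19680 to 21412 probes on an array, of which 54 to 56 were member probes. All 8 osteoblast markers named on the array, among them Col1a1 and Bglap, were detected on all 6 arrays. Across probes, the correlation between arrays was 0.982 to 0.989 within a group and 0.980 to 0.989 between groups. Marker means relative to each gene's 6-array mean differed between arrays. Muscle (11 genes) ranged from -1.39 on TG1 to 0.996 on WT2. Cartilage (9 genes tested) ranged from -0.84 on WT3 to 1.06 on TG2. Erythroid (4 genes tested) ranged from -0.42 on TG2 to 0.54 on WT1. All muscle, erythroid and neutrophil genes tested had a negative and all cartilage genes tested a positive log2 fold change (TG minus WT). The 8 osteoblast markers had 3 positive and 5 negative values, from -0.78 to 0.17, with a median of -0.14. Of these 8, 1 had an unadjusted p under 0.05 (0.00176, limma), where 3.44% of all tested probes did. No gene of these lists had an adjusted p under 0.05 (limma). The part of tissue content in member values was not tested. Samples TG2 and TG3 stood apart in their sex-linked transcripts: their Xist values were 9.17 and 9.34, against 4.49 to 5.12 on the other 4 arrays. The sex-linked signal therefore differs between the groups. The 4 arrays without the high Xist value include 1 TG array, so the spread there comes from WT alone, and they give values rather than a check of the calls. Of the 25 members whose arrays are given in full by rule, those whose log2 fold change moved most on these 4 arrays were Psmd2 (-0.21), Psmb8 (-0.59) and Psmd5 (0.31).

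**Figure D1:**
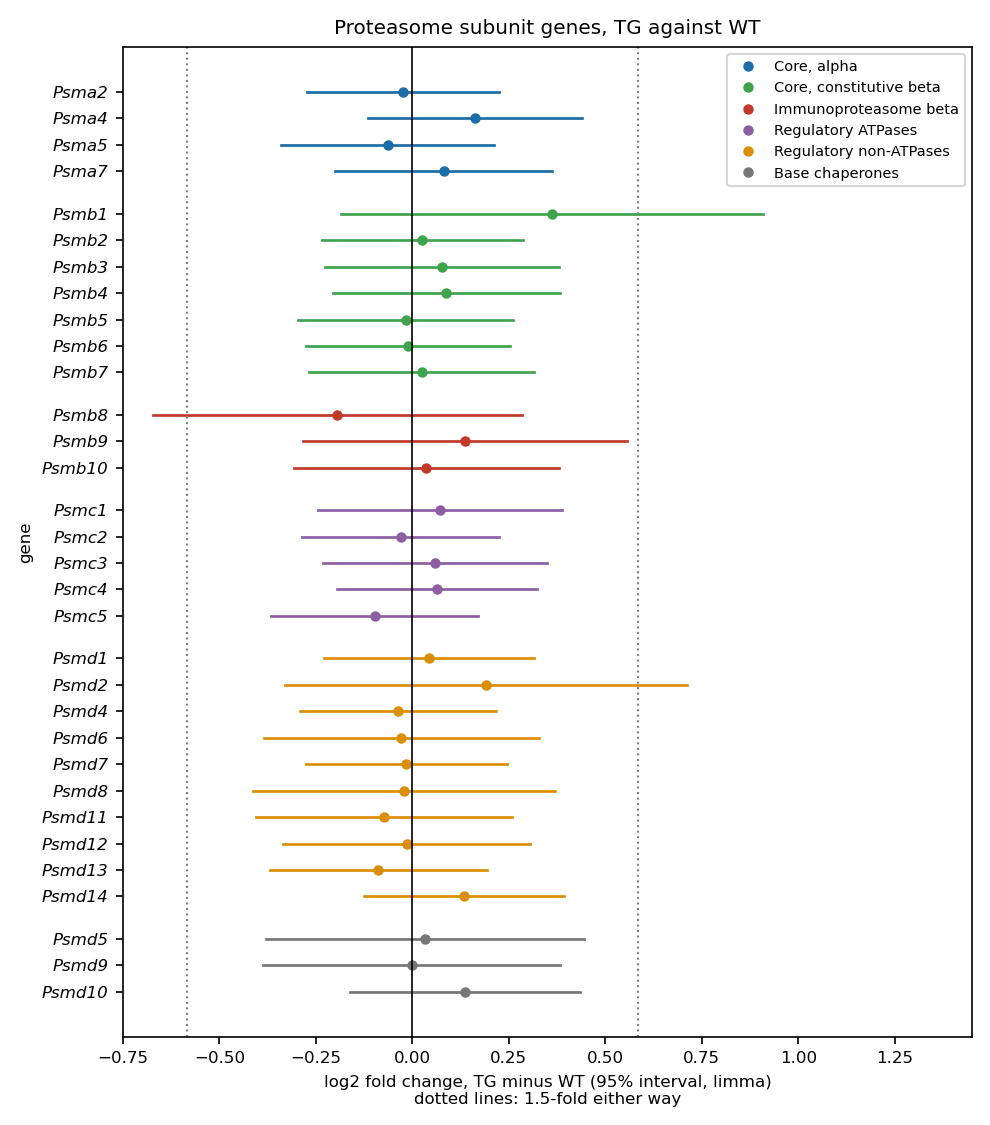
Log2 fold change (TG minus WT, horizontal axis) with the 95% interval from limma for each of the 32 proteasome genes tested, grouped by class, with dotted lines at 1.5-fold either way. Every interval crosses 0, and those of Psmb1, Psmb8 and Psmd2 reach past a dotted line.

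No proteasome subunit transcript passed the test between TG and WT calvaria. Of the 54 member probes that were detected on at least 3 arrays and tested, 0 had an adjusted p under 0.05 (limma, Benjamini-Hochberg over 20632 probes; smallest adjusted p among members 0.9996), where 0 of all 20632 probes (0%) did. At an unadjusted p under 0.05 the count was also 0 of 54, against 3.44% of all tested probes, and the smallest unadjusted limma p of a member was 0.0976, for the dimmer of the Psmd9 probes. Each of the 32 genes with a tested probe was represented by its brightest one, and 17 of these genes had a positive and 15 a negative log2 fold change. Positive values made up 53.1% of the members and 49.5% of all 11204 genes tested, and negative values 46.9% and 50.5%. The median log2 fold change was 0.03 for the members and -0.001 for all genes tested.

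The data bounded most members closely. The 95% interval of the fold change lay within 1.5-fold in both directions for 29 of the 32 genes (90.6%), a share that was 76.7% over all genes tested. Psmb1, Psmb8 and Psmd2 were the exceptions. Dimmer tested probes of Psmd6 and Psmd9 also reached past 1.5-fold, with log2 intervals of -0.07 to 0.65 and -0.06 to 0.62. A log2 fold change of less than 0.1 in size was found for 25 of the 32 genes (78.1%) and for 53.7% of all genes. The SD over the 6 arrays, groups ignored, had a median of 0.119 for the members and 0.173 for all genes tested. For the tested genes above the median level, where 75% of the members lay, that median was 0.133. The shares over all genes are not matched for level either. These values are those of 1 probe per gene, its brightest, and say nothing of the 16 member probes that were not tested. In the heat map of the 32 genes on each array, most cells lie near the gene's own mean, with a few cells of strong colour in Psmb1, Psmb8, Psmb9, Psmd2 and Psmd8.

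**Figure D2:**
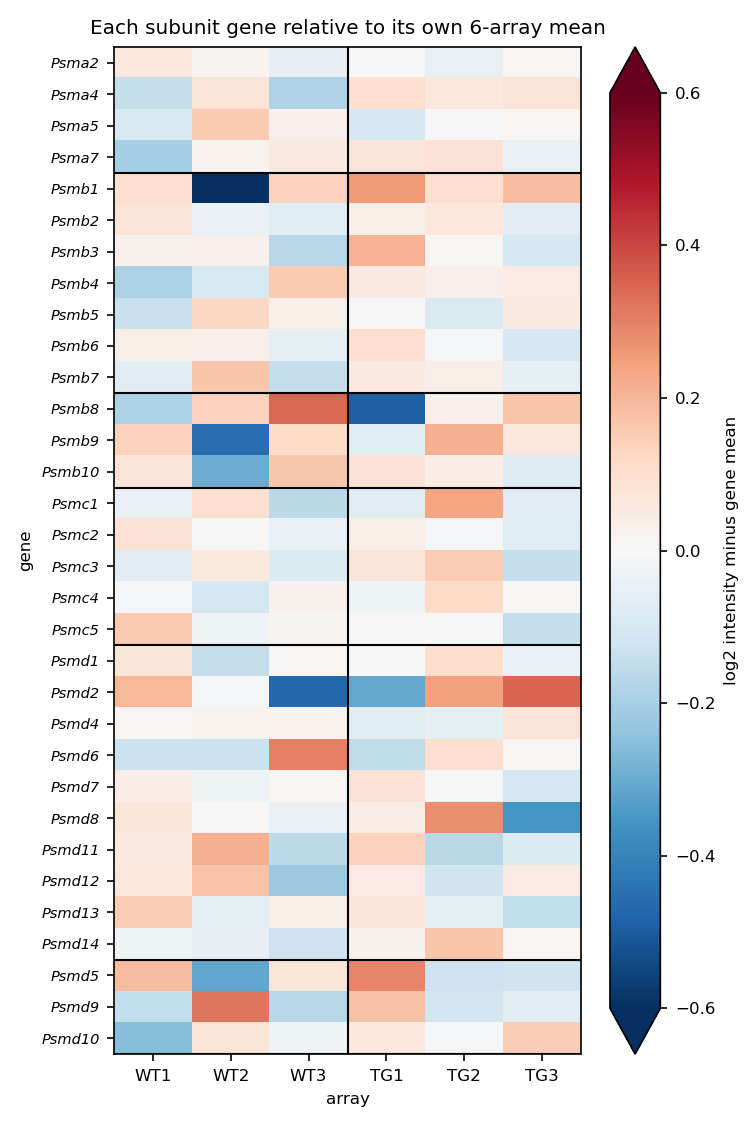
Normalised log2 intensity of each of the 32 genes (rows, in class order, separated by lines) on each array (columns, WT left and TG right of the line), minus the gene's mean over the 6 arrays; red is above and blue below that mean. Most cells are pale, and the darkest blue cell is Psmb1 on WT2.

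The alpha subunits form the outer rings of the core and gate the entry of substrates. Psma2 had the lowest spread of all members, an SD over the 6 arrays of 0.0419, with normalised log2 intensities of 12.52, 12.48 and 12.41 on WT1 to WT3 and 12.46, 12.42 and 12.46 on TG1 to TG3. The WT mean was 12.47 ± 0.06 and the TG mean 12.45 ± 0.03 (SD, n = 3), and the log2 fold change was -0.02 ± 0.11 with its SE from the fit, as for all further fold changes. This SE exceeds both group SDs, since the fit draws the variance of each probe toward a value shared by all tested probes. For genes of low spread, the SE and interval therefore reflect more than their own arrays. The groups overlapped throughout.

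Psma4 had the largest positive difference of the alpha subunits. Its WT values were 11.66, 11.88 and 11.62 and its TG values 11.90, 11.87 and 11.88, a log2 fold change of 0.16 ± 0.12 (95% interval -0.11 to 0.44). The 3 TG arrays lay close together, and WT2 fell among them while WT1 and WT3 were lower. Psma5 had 12.56, 12.81 and 12.69 on WT arrays and 12.55, 12.66 and 12.67 on TG arrays, with a log2 fold change of -0.06 ± 0.12. Psma7 had 10.28, 10.50 and 10.54 on WT arrays and 10.56, 10.57 and 10.44 on TG arrays, a log2 fold change of 0.08 ± 0.12, and 0.12 by its other probe. For both genes the groups overlapped, and 2 of the 4 alpha genes tested were positive and 2 negative, with a median of 0.03.

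Among the structural beta subunits, which carry no protease site, Psmb1 had the largest log2 fold change of any member, and 1 array set it. Psmb1 had 11.05, 10.18 and 11.10 on WT1 to WT3 and 11.21, 11.06 and 11.14 on TG1 to TG3. The WT2 value was the low one, and it was low in the raw signal too, at an intensity of 1400.9 against 2078.7 to 2538.7 on the other 5 arrays. The group means were 10.78 ± 0.52 in WT and 11.14 ± 0.08 in TG (SD, n = 3), and the log2 fold change of 0.36 ± 0.24 (95% interval -0.19 to 0.91) became 0.06 without WT2.

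Psmb4 had 12.55, 12.65 and 12.90 on WT arrays and 12.80, 12.77 and 12.79 on TG arrays, a log2 fold change of 0.09 ± 0.13. Psmb3 had 11.50, 11.51 and 11.30 on WT arrays and 11.68, 11.49 and 11.37 on TG arrays, a log2 fold change of 0.08 ± 0.13. Psmb2 had 11.60, 11.49 and 11.45 on WT arrays and 11.57, 11.59 and 11.46 on TG arrays, a log2 fold change of 0.03 ± 0.11. In each of these 3 genes the groups overlapped, and the TG arrays of Psmb4 all lay inside the WT range.

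The brightest probes of the constitutive protease subunits had log2 fold changes between -0.02 and 0.02. Psmb6, which carries the caspase-like site, had 11.88, 11.87 and 11.79 on WT arrays and 11.94, 11.84 and 11.74 on TG arrays, a log2 fold change of -0.01 ± 0.11 (95% interval -0.27 to 0.25). Psmb7, which carries the trypsin-like site, had 11.43, 11.66 and 11.35 on WT arrays and 11.55, 11.53 and 11.43 on TG arrays, a log2 fold change of 0.02 ± 0.13 (95% interval -0.27 to 0.31). Psmb5, which carries the chymotrypsin-like site, had 7.61, 7.87 and 7.78 on WT arrays and 7.75, 7.66 and 7.80 on TG arrays, a log2 fold change of -0.02 ± 0.12 (95% interval -0.30 to 0.26). All 3 intervals stayed within 1.5-fold either way, and in all 3 genes the groups overlapped.

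The 4 Psmb7 probes did not give 1 direction: the other 3 had log2 fold changes of 0.14, 0.10 and -0.13. On the probe with -0.13 the groups did not overlap, with 9.28, 9.18 and 9.24 on WT arrays and 9.07, 9.09 and 9.16 on TG arrays (adjusted p 0.9996, limma). It was the 1 member probe of 54 (1.85%) with every TG array below every WT array, where 3.93% of all tested probes had that pattern.

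**Figure D3:**
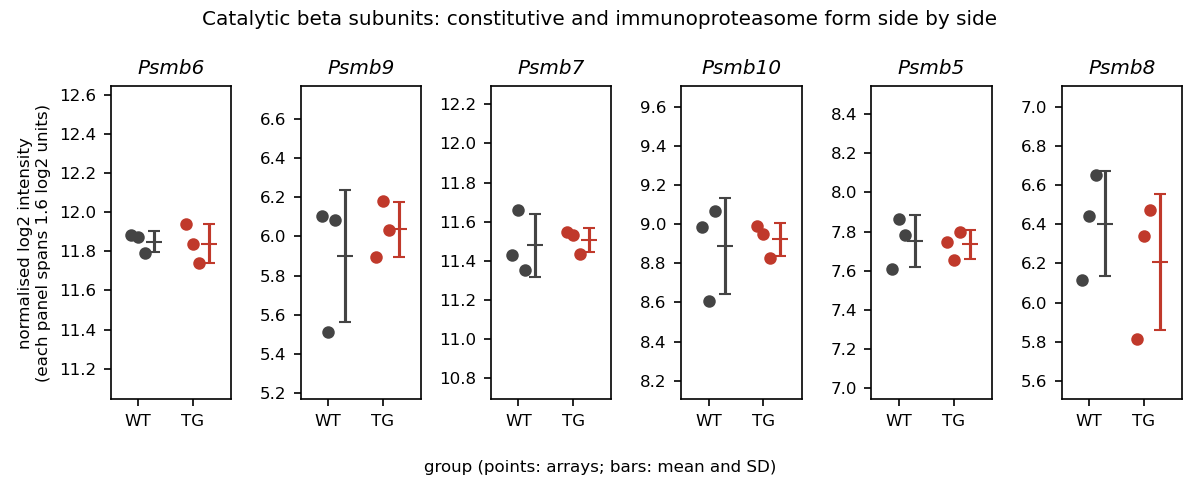
Normalised log2 intensity of the 6 protease subunits on each array (points) with the group mean and SD (bars; n = 3 in each group); each constitutive gene stands left of the immunoproteasome gene that replaces it, and each panel spans the same 1.6 log2 units on its own range. The points of both groups overlap in every panel, and WT2 is the low point for Psmb9 and Psmb10.

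The immunoproteasome genes were measured less precisely, and none passed the test. Psmb8, which replaces Psmb5, had 6.12, 6.44 and 6.65 on WT arrays and 5.82, 6.34 and 6.47 on TG arrays. Its intensities of 159.7 to 204.4 lay not far above the array medians, and the log2 fold change was -0.19 ± 0.21 (95% interval -0.67 to 0.28). TG1 was the lowest array and WT3 the highest, and the other 4 arrays lay between them. The log2 fold change was 0.001 without TG1, -0.07 without WT3 and -0.34 without WT1. The deposited values that the authors normalised gave a difference of -0.06 for the same probe.

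Psmb9, which replaces Psmb6, had 6.11, 5.51 and 6.08 on WT arrays and 5.90, 6.18 and 6.03 on TG arrays, a log2 fold change of 0.14 ± 0.18 (95% interval -0.28 to 0.56). Psmb10, which replaces Psmb7, had 8.99, 8.61 and 9.07 on WT arrays and 8.99, 8.95 and 8.83 on TG arrays, a log2 fold change of 0.04 ± 0.15 (95% interval -0.31 to 0.38). Both genes were lowest on WT2, and for both the groups overlapped. Without WT2 the values were -0.06 for Psmb9 and -0.10 for Psmb10. The second Psmb10 probe repeated that order for its lowest and highest arrays, with 8.06, 7.84 and 8.30 on WT arrays and 8.05, 8.10 and 8.10 on TG arrays.

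The 3 immunoproteasome genes had a median log2 fold change of 0.04 and a median SD over the 6 arrays of 0.243, against 0.108 for the 26 constitutive core and regulatory genes tested. These sets differ in level: 1 of the 3 genes lay above the median gene, against 22 of the 26. Psmd5, Psmd9 and Psmd10, also with 1 gene above it, had a median SD of 0.201. The mean of the immunoproteasome genes relative to each gene's 6-array mean was 0.01, -0.21 and 0.21 on WT1 to WT3 and -0.16, 0.10 and 0.05 on TG1 to TG3. WT2 and TG1 were the low arrays and WT3 the high one. In bulk tissue, fewer cells of a type and less RNA per cell cannot be told apart, and blood cells carry the immunoproteasome. The 12 of 14 leukocyte markers that were tested had relative means of 0.09, -0.17 and 0.27 on WT1 to WT3. On TG1 to TG3 these means were -0.24, -0.08 and 0.13, so WT2 and TG1 were again the lowest arrays and WT3 the highest. TG2 differed, at 0.10 for the immunoproteasome genes and -0.08 for the leukocyte markers. The 11 of 12 neutrophil markers that were tested ranged from -0.03 to 0.51 in WT and from -1.05 to 0.21 in TG, with TG1 the lowest. Ptprc, the defining leukocyte marker, was detected on at most 1 array and was not tested. The part of leukocyte content in the immunoproteasome values was not tested.

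**Figure D4:**
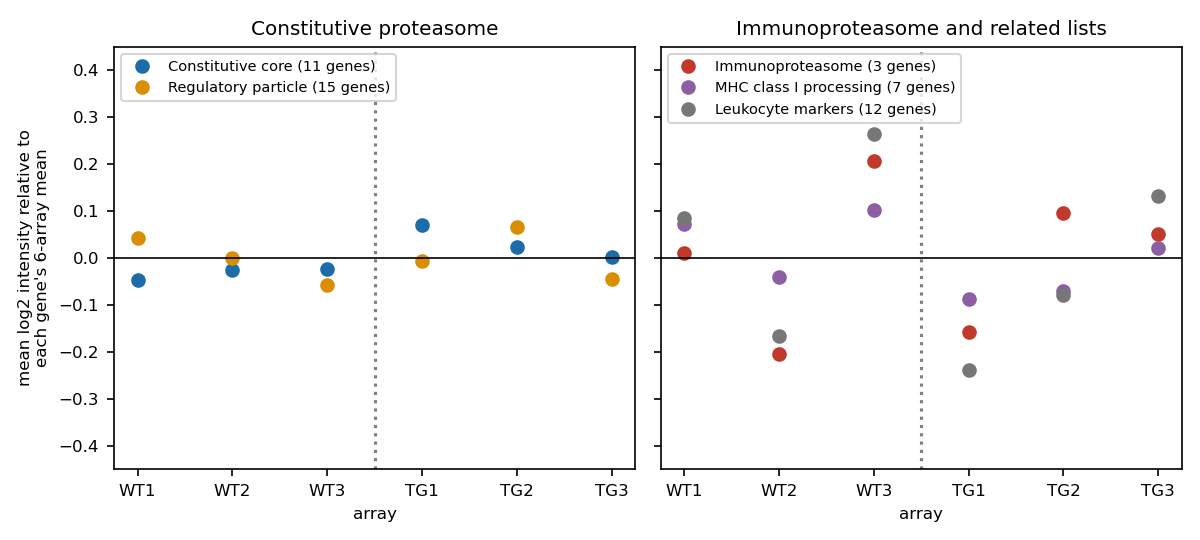
Mean log2 intensity of a gene list on each array relative to each gene's 6-array mean (vertical axis; arrays on the horizontal axis, with WT left of the dotted line), for the constitutive core and the regulatory particle in the left panel and for the immunoproteasome, MHC class I processing genes and leukocyte markers in the right panel. The left panel stays between -0.06 and 0.07, and the right panel spans -0.24 to 0.27, with WT3 the highest array in all 3 lists.

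The constitutive core as a whole differed by less than 0.1 log2 units between the groups. Its 11 tested genes had relative means of -0.05, -0.03 and -0.02 on WT1 to WT3 and 0.07, 0.02 and 0.001 on TG1 to TG3, with the TG arrays above the WT arrays and a difference of 0.06. Psmb1 carried this order: without it, an alternative chosen after seeing the data, the means were -0.06, 0.05 and -0.04 in WT and 0.05, 0.02 and -0.02 in TG. The groups then overlapped and the difference was 0.03.

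The ATPases of the regulatory particle form the ring that unfolds the substrate and threads it into the core. Psmc5 had the largest difference among them, with 10.91, 10.72 and 10.76 on WT arrays and 10.75, 10.74 and 10.61 on TG arrays, a log2 fold change of -0.098 ± 0.12 (95% interval -0.37 to 0.17). Psmc1 had 9.95, 10.09 and 9.83 on WT arrays and 9.93, 10.23 and 9.93 on TG arrays, a log2 fold change of 0.07 ± 0.14. The groups overlapped in both genes, and the second Psmc5 probe gave -0.13.

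Psmc3 had 10.57, 10.69 and 10.55 on WT arrays and 10.71, 10.79 and 10.49 on TG arrays, a log2 fold change of 0.06 ± 0.13. Psmc4 had 11.28, 11.18 and 11.31 on WT arrays and 11.26, 11.40 and 11.30 on TG arrays, a log2 fold change of 0.06 ± 0.11. Psmc2, the remaining ATPase tested, had a log2 fold change of -0.03 ± 0.11. All 5 ATPase genes had log2 fold changes of less than 0.1 in size, 3 positive and 2 negative, with a median of 0.06, and all 5 intervals lay within 1.5-fold.

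The non-ATPase subunits of the regulatory particle hold its scaffold, ubiquitin receptors and deubiquitinase. Psmd14 is that deubiquitinase, which cuts ubiquitin chains off the substrate as it enters. It had 9.61, 9.59 and 9.52 on WT arrays and 9.66, 9.80 and 9.65 on TG arrays, with means of 9.57 ± 0.05 and 9.71 ± 0.08 (SD, n = 3). Every TG array lay above every WT array, and the log2 fold change was 0.13 ± 0.11 (95% interval -0.12 to 0.39; adjusted p 0.9996, limma).

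The second Psmd14 probe had 9.53, 9.45 and 9.39 on WT arrays and 9.56, 9.70 and 9.55 on TG arrays, with no overlap and a log2 fold change of 0.15 ± 0.11. Psmd14 was the 1 member gene of 32 (3.12%) whose groups did not overlap with TG higher, where 3.35% of all genes tested had that pattern. With TG lower the count was 0 of 32, against 3.48% of all genes. Counted by probe, 4 of 54 members had TG higher with no overlap (7.41%, against 3.62% of all tested probes): both Psmd14 probes, 1 Psmd1 probe and 1 Psmd11 probe.

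Psmd2 is the large scaffold subunit that docks ubiquitin-carrying shuttle proteins. It was dim, with 6.16, 5.95 and 5.49 on WT arrays and 5.65, 6.20 and 6.31 on TG arrays, and its log2 fold change of 0.19 ± 0.23 had an interval from -0.33 to 0.71. WT3 and TG1 were the low arrays, 1 in each group, and the value was 0.003 without WT3 and 0.39 without TG1. The authors' deposited values gave 0.05 for this probe, the widest gap from the fit here among the 32 genes, and the second probe gave 0.31.

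Psmd13 had 11.80, 11.59 and 11.68 on WT arrays and 11.72, 11.59 and 11.50 on TG arrays, a log2 fold change of -0.09 ± 0.12. Psmd11 had 7.92, 8.08 and 7.71 on WT arrays and 8.002, 7.70 and 7.78 on TG arrays, a log2 fold change of -0.07 ± 0.14. The groups overlapped in both genes. The second Psmd11 probe went the other way without overlap, with 6.45, 6.37 and 6.30 on WT arrays, 6.47, 6.64 and 6.57 on TG arrays and a log2 fold change of 0.18 ± 0.11, so the gene has no single direction here.

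Psmd1, the other large scaffold subunit, had a log2 fold change of 0.04 ± 0.12 by its brightest probe. A further Psmd1 probe had 12.15, 12.05 and 12.06 on WT arrays and 12.18, 12.20 and 12.21 on TG arrays, a log2 fold change of 0.11 ± 0.11 with every TG array above every WT array. Psmd4, a ubiquitin receptor, had 11.97, 11.98 and 11.98 on WT arrays and 11.88, 11.90 and 12.03 on TG arrays, a log2 fold change of -0.04 ± 0.11. The other non-ATPases tested, Psmd6, Psmd7, Psmd8 and Psmd12, had log2 fold changes between -0.03 and -0.02 by their brightest probes. Further probes of 3 of these genes had the other sign, with 0.29 ± 0.16 for Psmd6, 0.16 ± 0.13 for Psmd12 and 0.06 for both further Psmd7 probes. By the brightest probes, of the 10 genes, 3 were positive and 7 negative, with a median of -0.02. On the arrays without the high Xist value that median was 0.03, where the median of all tested probes was 0.02.

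The regulatory particle as a whole had relative means of 0.04, -0.0003 and -0.06 on WT1 to WT3 and -0.006, 0.07 and -0.04 on TG1 to TG3 over its 15 tested genes. The groups overlapped, with WT3 the lowest array and TG2 the highest.

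Psmd5, Psmd9 and Psmd10 carry the same symbol stem but encode chaperones that help to assemble the base of the regulatory particle and leave before it is complete. Psmd10, also called gankyrin, had 8.82, 9.15 and 9.05 on WT arrays and 9.14, 9.06 and 9.22 on TG arrays, a log2 fold change of 0.14 ± 0.13. Psmd5 had 7.24, 6.74 and 7.12 on WT arrays and 7.34, 6.92 and 6.93 on TG arrays, a log2 fold change of 0.03 ± 0.18. Psmd9 had 6.46, 6.93 and 6.44 on WT arrays and 6.78, 6.496 and 6.53 on TG arrays, a log2 fold change of -0.001 ± 0.17. The groups overlapped in all 3 genes, and the second Psmd9 probe gave 0.28 ± 0.15. The further tested Psmd10 probes gave -0.02 and 0.04.

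Where a gene had several tested probes, they often differed in sign: of 17 such genes, 9 had 1 sign on all tested probes and 8 did not. The 22 tested member probes that did not stand for their gene had positive log2 fold changes in 17 cases (77.3%), a median of 0.09, while the same kind of probe over all genes was positive in 49.5% of 6498 cases. The brightest probes and the dimmer ones of the same genes therefore gave different balances of sign, and neither had a member past the test.

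Of the 39 genes, 7 had no tested probe and their levels are not known from these arrays. Psma1, Psma3, Psma6 and Psmd3 were detected on none of the 6 arrays, and Psmc6 was detected on WT3 and TG1 by 1 of its 2 probes. These genes encode subunits of the core or of the regulatory particle, and a probe without signal does not show a missing transcript. Psma8, an alpha subunit of the testis, was detected by 1 of its 2 probes on TG2 and TG3, at intensities of 135.6 and 144.7 (detection p 0.016 and 0.00962). These lay not far above the array medians of 125.1 to 132.6. The other Psma8 probe was detected on TG2 alone, with a detection p of 0.0235 there and 0.568 on TG3. Psmb11, the beta subunit of thymic cortical epithelium, was detected on TG1. A further 6 genes had both a tested and an untested probe.

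Transcripts of proteins that work with the proteasome also gave 0 calls at an adjusted p under 0.05 in any list (limma). PA28, a cap that opens the core without ATP, is made of Psme1 and Psme2 and is induced together with the immunoproteasome. Psme2 had 8.27, 8.33 and 8.41 on WT arrays and 8.21, 8.16 and 7.75 on TG arrays. Every TG array lay below every WT array, and the log2 fold change was -0.30 ± 0.15 (95% interval -0.64 to 0.05; adjusted p 0.9996, limma). Psme1 had a log2 fold change of -0.12 ± 0.12 by its brighter probe and 0.30 ± 0.11 by the dimmer one, whose TG arrays all lay above WT, so its probes disagree. Of the 4 genes tested in the list of activators and inhibitor, 1 was positive and 3 negative, and Psme4, a further activator, had 0.10 ± 0.12.

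The chaperones that assemble the core had 1 positive and 3 negative values among the 4 of 5 genes tested, with a median of -0.05. Psmg2 had the largest, -0.12 ± 0.11, then Psmg3 with -0.07 ± 0.17 and Pomp with 0.05 ± 0.12. Factors bound to the regulatory particle had 2 positive and 3 negative values among 5 genes, led by the deubiquitinases Usp14 with 0.07 ± 0.12 and Uchl5 with -0.05 ± 0.13. These are values of the brightest probes. The dimmest of the 3 Ecpas probes had 0.44 ± 0.12 with every TG array above every WT array. Its 95% interval was 0.16 to 0.72 (unadjusted p 0.00684, adjusted p 0.9996, limma). An unadjusted p under 0.05 was reached by 3.44% of all tested probes. The other Ecpas probes gave 0.003 and 0.20. Ubiquitin conjugation and shuttle genes had 2 positive and 3 negative values among the 5 of 6 tested, led by the shuttle factor Sqstm1 with -0.09 ± 0.14.

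The MHC class I genes use the peptides the proteasome makes, and 3 of the 7 tested of 9 were positive and 4 negative, with a median of -0.08. Tap1, a subunit of the pump that carries peptides into the endoplasmic reticulum, had 5.10, 5.31 and 5.16 on WT arrays and 4.65, 5.09 and 4.99 on TG arrays. It was near background, detected on 5 of the 6 arrays, with no overlap between the groups and a log2 fold change of -0.28 ± 0.15 (adjusted p 0.9996, limma). In the RefSeq annotation of the mouse genome, Tap1 lies between Psmb9 and Psmb8, in the order H2-DMb1, Psmb9, Tap1, Psmb8, Tap2. These neighbours had log2 fold changes of 0.14 for Psmb9 and -0.19 for Psmb8, on either side of 0.

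Nfe2l1 is the transcription factor that raises proteasome genes together when proteasome activity is short, through antioxidant response elements near their start sites. Nfe2l1 itself had a log2 fold change of -0.02 ± 0.11. Of the 5 genes tested of the 6 in its processing and partner list, 1 was positive and 4 negative, with Nfe2l2 at -0.22 ± 0.14, Ufd1 at -0.22 ± 0.16 and Vcp at 0.05 ± 0.11. The element's core was searched as TGACNNNGC, on both strands, in the 250 bases before each gene's start in RefSeq promoters of GRCm38.p6. Of the 39 member genes, 32 had a promoter entry, and 5 of these (15.6%) held the core, against 3112 of 27025 (11.5%) over all genes. The windows are printed 5′ to 3′ on the gene's strand, 30 bases each, with the match in capitals, because they show which subunit genes hold it:
Psmb5, chr14:54618023-54618052, minus strand: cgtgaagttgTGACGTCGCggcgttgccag
Psmb6, chr11:70525327-70525356, plus strand: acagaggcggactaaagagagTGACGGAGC
Psmc6, chr14:45329587-45329616, plus strand: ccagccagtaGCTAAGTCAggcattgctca
Psmd12, chr11:107479278-107479307, plus strand: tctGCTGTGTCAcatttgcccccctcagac
Psmd9, chr5:123228149-123228178, plus strand: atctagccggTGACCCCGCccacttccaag
In Psmb5, Psmb6 and Psmd9 the match lay within 50 bases of the start, first base 47, 9 and 31 before it, and in Psmc6 and Psmd12 it lay 227 and 247 bases before it on the opposite strand. A match of letters is no evidence of binding. The 4 of these genes that were tested had log2 fold changes between -0.02 and -0.001 by their brightest probes, while the second probes of Psmd9 and Psmd12 gave 0.28 and 0.16, and Psmc6 had no tested probe.

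The values the authors normalised gave the same sign as the fit here for all 32 genes, from -0.09 for Psmc5 to 0.33 for Psmb1. The largest gap between the sets was 0.14 log2 units.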

How the data were processed

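Per the file headers, the authors deposited a linear intensity without normalisation and a detection p-value per probe and array; the authors' normalised values were deposited as log2, and the submitters' processing notes name lumi. The sources used here do not give the background step and normalisation behind the latter. In the control block of the first table, per the file headers, the arrays carry another age and other replicate numbers than in the sample labels; this is unresolved, and the sample labels were used.

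Of the 974 control rows, 936 served as negative controls: with them, the deposited detection p-values could be recomputed to within 0.00695. The background was corrected by normexp on the negative controls (offset 16; limma 3.58.1, R 4.3.3), followed by quantile normalisation and log2. Probes with a detection p under 0.05 on at least 3 of 6 arrays were tested (20632 probes, 11204 named genes). TG was compared with WT by lmFit and eBayes, two-sided, with Benjamini-Hochberg adjustment over all of them and a threshold of 0.05. The tested probe with the highest mean stands for its gene. Beyond that choice and the grouping of genes as above or below the median level, levels are not compared between probes, since probes differ in response. With 3 arrays a group, the number of arrays limits the precision.

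Symbols come from the platform annotation: of 45281 probes 34885 had 1 symbol, 18 several and 10378 were not named here. Values are given for the 6 protease subunits, for up to 4 genes of each class with the largest log2 fold change, and for up to 3 of each related list. Other members, and other probes, are named as part of a range or because they stood out, after their values were seen. The members and lists were chosen with earlier results of these data known. Alternatives varied the normalisation (the values of the authors, cyclic loess, median scaling), the background step (none, or an offset of 50), the filter on dim probes, the model (replicate block, array weights, robust and trended variance, a covariate of Y-linked signal), the arrays (each left out, or those with high Xist left out) and the probe (mean over a gene).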

Additional observations from a re-analysis of the deposited data

How the results depend on the processing

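Under the 12 alternatives and the 6 fits that left out 1 array, the count of member probes past the test was 0 in each, with a smallest adjusted p among members of 0.832 (limma), reached with the Y-linked signal as a covariate. The median log2 fold change of all members was 0.0506 with median scaling, which moved the median of all probes to 0.03, and 0.0678 once Y-linked signal was a covariate. It was 0.0568 when all tested probes of a gene were averaged. The constitutive beta core was at 0.0861 with the Y-linked covariate, 0.0886 on the arrays without the high Xist value and 0.0751 with the mean of a gene's probes. The non-ATPases had a positive median under the same settings, at 0.0692, 0.0316 and 0.0641, and at 0.0106 with median scaling. The median of all tested probes was itself 0.0293 with the Y-linked covariate and 0.0209 on the arrays without the high Xist value. The base chaperones were at 0.155 with the Y-linked covariate and 0.176 on the arrays without the high Xist value. That last setting keeps 1 TG array, which is assumed to vary like the others. The cause of these shifts was not tested. Psmb8 had the largest single shift, to -0.74 with the Y-linked covariate (unadjusted limma p 0.013, adjusted p 0.832; adjusted p over its alternatives 0.832 and above) and -0.59 on the arrays without the high Xist value. The core level without Psmb1, chosen after seeing the data, was 0.0342 in place of 0.064.

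Leaving out each array in turn gave medians of 2.47e-05 to 0.0653 for all members, 0.00261 to 0.0555 for the alpha core, -0.00328 to 0.0647 for the beta core and -0.104 to 0.125 for the immunoproteasome. The ranges were -0.030 to 0.0743 for the ATPases, -0.0263 to 0.00556 for the non-ATPases and -0.0904 to 0.159 for the base chaperones. Psmb1 ranged from 0.06 without WT2 to 0.52. Without TG1, 2 probes of all those tested passed, 0 of them members. The labels do not say whether replicate numbers pair the samples. Correlations of deviations between WT and TG arrays were 0.262, 0.151 and -0.169 for numbers 1 to 3. They cannot decide it, since arrays with unlike numbers were not compared. With the replicate number as a block, 0 member probes passed (smallest adjusted p 0.9995, limma); in this balanced design the block cannot change a fold change. Of the 25 members given by name, 7 had the other sign with the Y-linked covariate, 7 on the arrays without the high Xist value, 2 with median scaling, 1 each with cyclic loess and array weights, and 2 to 7 when 1 array was left out. Probes near background, such as those of Psmb8, Psmb9 and Psmd2, limit what can be read from those genes.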
